A study of Mus musculus with 18 samples.

Results

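Thyroglobulin, the receptor for thyroid-stimulating hormone (TSH), the activating deiodinases and the nuclear receptors of thyroid hormone were followed in sorted mouse thyroid cells. The members were every probe whose gene name in the scanner files was Tgn (the files' name of Tg, thyroglobulin), Tshr, Dio1, Dio2, Thra or Thrb. These 6 of 27962 gene names had 12 of the 41174 probes on the array: 2 for Tgn, 2 for Tshr, 1 for Dio1, 1 for Dio2, 2 for Thra and 4 for Thrb. Of the 12, 11 entered the tests, which were run on 29803 probes that were well above background in the sample channel on at least 3 of the 18 arrays. The probe left out, Thrb A_52_P265108, was well above background on 1 array.

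Follicular cells of the thyroid secrete thyroglobulin, a very large protein on whose tyrosines the hormone is built. TSH binds its receptor on these cells, raises cyclic AMP and drives both the growth of the gland and hormone output. The hormone leaves the gland mostly as thyroxine. Type 1 and type 2 deiodinase remove an iodine to give triiodothyronine, and the receptors alpha and beta bind it in the nucleus and regulate its target genes.

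The study asked how the side population of the gland, cells that pump out the DNA dye Hoechst, differs from the remaining cells, and what partial removal of the gland does to both. Thyroid tissue, from male and female C57BL/6 mice, was digested with collagenase and dispase, kept in culture for 2 days and sorted, with the efflux blocker verapamil setting the gate. The groups were the control side population (CSP, 6 arrays) and the control main population (CMP, 3 arrays), and, after partial thyroidectomy, the side population (TSP, 6 arrays) and the main population (TMP, 3 arrays). All groups shared strain, tissue, digestion and culture, and no sham operation, age or time after surgery is named in the labels. The design text calls the samples biological replicates without saying whether animals were pooled, so the p-values measure the spread between these samples. Amplified RNA of each sample carried Cy5 and was set on the array against one Cy3-labelled reference, total RNA of Swiss Webster mice from thymus, spleen, lung, heart, liver, kidney, brain, testicle, ovary and embryo. That pool holds no thyroid RNA. No dye swap was made.

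Some arrays stood apart. Over the tested probes the median correlation of TSP 1 and TSP 2 was 0.942 to CMP and TMP arrays and 0.688 to the remaining CSP and TSP arrays, so TSP results for the members are given with and without them. That choice rests on the arrays' expression, members included, so a p without these arrays is conditional on it and describes TSP 3 to TSP 6 only, not TSP as labelled. CSP 6 was nearer to the main population than CSP 1 to CSP 5 for several members, as given with each. Between 38.8% and 72% of an array's spots were well above background in Cy5. In the main population, as the tissue label says, thyroid transcripts were present: Tgn, Tshr A_51_P179103, Dio1 and the thyroid transcription factors Pax8, Nkx2-1 and Foxe1 were well above background on all CMP arrays. Slc5a5, which imports iodide, cleared background on 0 of 6 CSP and 2 of 3 CMP arrays.

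The probes decide what each value reads, and the pair for Tgn is shown first because it is not a pair of independent readings. Both are 60 bases long and lie on chromosome 15 of build mm7, as the scanner files give it, and they share 40 bases, in capitals here.
Tgn A_52_P590168 (chr15:66934175-66934234): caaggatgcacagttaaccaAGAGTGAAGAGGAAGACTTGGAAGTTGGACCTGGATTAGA
Tgn A_52_P117408 (chr15:66934195-66934254): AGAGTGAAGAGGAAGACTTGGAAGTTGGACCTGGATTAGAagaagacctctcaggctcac
The Tshr and Thra probes below are shown because each gene has a second probe that read differently. The Tshr probe spans 2436 bases of the genome on chromosome 12 with only 60 bases of sequence, so it crosses an intron.
Tshr A_52_P145539 (chr12:88986427-88988862): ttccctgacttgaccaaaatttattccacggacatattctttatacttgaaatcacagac
Thra A_52_P666930 (chr11:98873367-98873426): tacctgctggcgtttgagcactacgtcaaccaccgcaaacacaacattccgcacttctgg
The second Tshr probe, A_51_P179103, lies at chr12:89019706-89019765 and the second Thra probe, A_51_P475995, at chr11:98874081-98874140. Dio1 A_51_P403477 lies at chr4:106667906-106667942, Dio2 A_51_P208603 at chr12:88205395-88205454 and Thrb A_52_P532559 at chr14:15850713-15850772. The position given for Dio1 spans 37 bases and so covers only part of the 60 bases of its probe. By RefSeq accession 10 of the 12 probes matched the transcript of their gene, all but Thrb A_52_P532559 and Thrb A_52_P877015, and no annotation of build mm7 was used to place them in exons or untranslated regions.

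Values below are log2 ratios of Cy5 over Cy3 unless a channel is named, and a probe was called at an adjusted p under 0.05 (limma, Benjamini-Hochberg over 29803 probes). In CSP against CMP, 3 of 11 member probes were called, against 13.2% of all tested probes (6.54% higher and 6.63% lower). Without CMP 1 or without CMP 2, 0 member probes were called, with adjusted p of 0.0597 and 0.0541 for Tshr and 0.0525 and 0.0579 for Dio1. Tshr and Dio1 fell, Dio2 rose, and Tgn did not pass the test in the ratio. After partial thyroidectomy no member was called with all 6 TSP arrays, and the same 3 genes and Thrb were called for TSP 3 to TSP 6 against TMP, arrays kept by their profile, against 12.7% of all tested probes (6.35% higher and 6.32% lower).

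**Figure D1:**
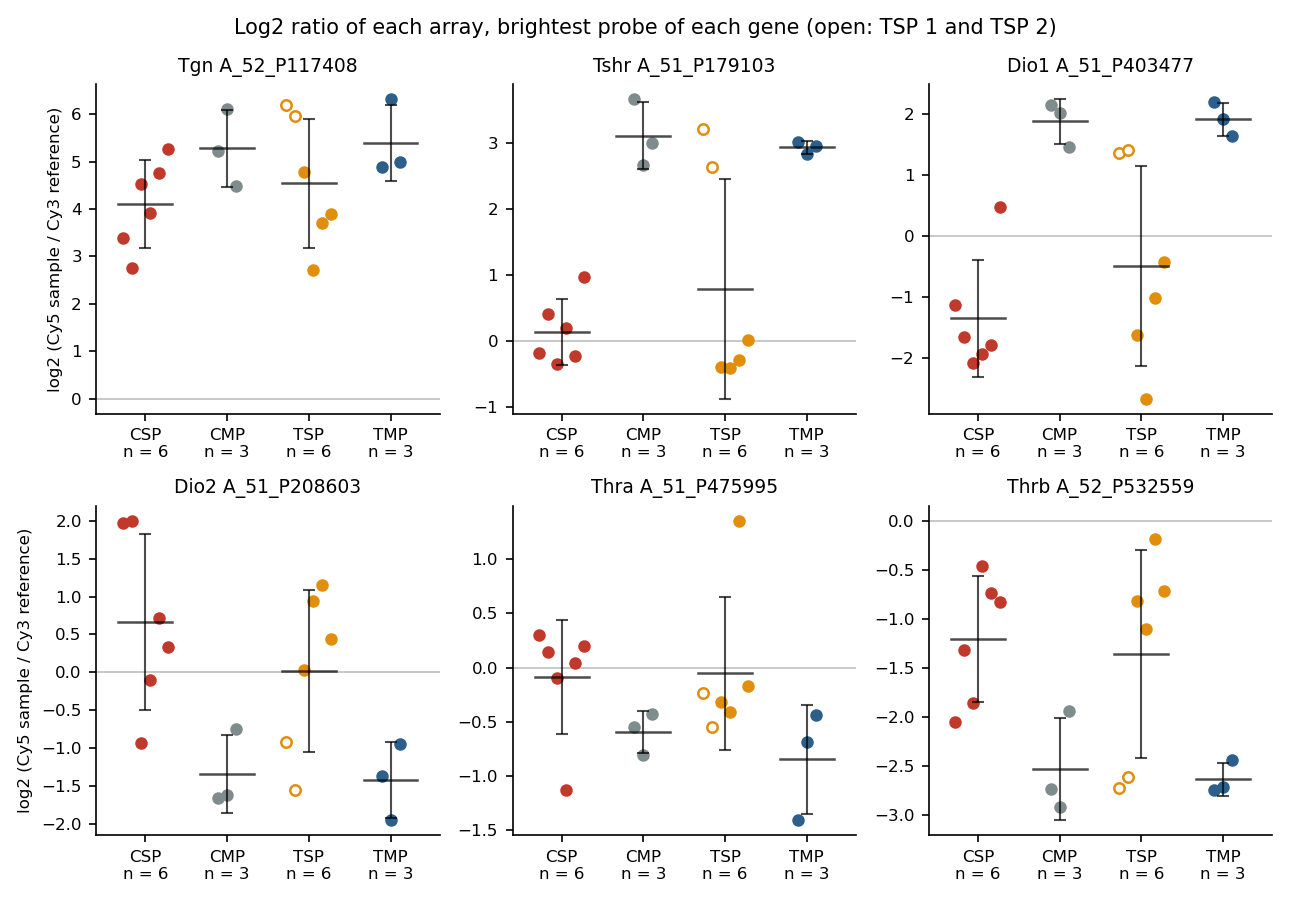
Log2 ratio of sample over reference (vertical axis) on each of the 18 arrays for the brightest probe of each gene, with group mean and SD in black. Tshr and Dio1 separate CSP from CMP completely, Tgn of CSP runs from 2.75 to 5.26 and overlaps CMP, and the open points, TSP 1 and TSP 2, lie nearer to the TMP mean than to the mean of TSP 3 to TSP 6 for Tgn, Tshr, Dio1, Dio2 and Thrb.

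Thyroglobulin kept a high ratio in every group. The ratio of Tgn A_52_P117408 had a lowest, median and highest value of 2.75, 4.22 and 5.26 in CSP, against 5.23, 6.13 and 4.49 in CMP 1 to CMP 3. It was 2.71, 4.35 and 6.19 in TSP, against 4.89, 6.32 and 4.99 in TMP 1 to TMP 3. The group means were 4.10 ± 0.93 in CSP (SD, n = 6) and 5.28 ± 0.82 in CMP (n = 3), and 4.54 ± 1.36 in TSP (n = 6) and 5.40 ± 0.80 in TMP (n = 3). From low to high the order was CSP, TSP, CMP and TMP, and neighbours in it differed by less than their spread. The groups overlap in both comparisons. The difference of CSP minus CMP was -1.18 ± 0.68 (SE, adjusted p = 0.279) for A_52_P117408 and -1.39 ± 0.76 (adjusted p = 0.252) for A_52_P590168. TSP minus TMP was -0.85 ± 0.68 (adjusted p = 0.691) and -1.15 ± 0.76 (adjusted p = 0.593) with all arrays, and -1.62 ± 0.58 (adjusted p = 0.0828) and -2.01 ± 0.66 (adjusted p = 0.0547) without TSP 1 and TSP 2. With the whole of slide 1 left out, which drops CSP 1 and CSP 2 too, the adjusted p was 0.0533 and 0.0291, so the second probe passed in that setting. The TSP minus TMP direction is not fixed by the processing: with the ratios scaled to equal spread between arrays it was 0.78 and 0.63.

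The 2 channels behind that ratio both moved. On the scanner's linear scale the Cy5 mean signal of A_52_P117408 lay between 1327 and 6571 in CSP 1 to CSP 5 and at 117592 in CSP 6, against 255921, 363772 and 444423 in CMP. Every CSP array was thus below every CMP array in the channel that holds the thyroid RNA. Cy3 was the dye of the reference RNA, which was the same on all arrays. The Cy3 signal of the same spots nevertheless lay between 305 and 508 in CSP 1 to CSP 5 and at 2597 in CSP 6, against 7099, 3671 and 6936 in CMP. The second Tgn probe read 1361 to 6053 in Cy5 on CSP 1 to CSP 5 and 112612 on CSP 6, against 265219, 297061 and 452375 in CMP, and its Cy3 read 249 to 415 and 1558, against 5226, 2227 and 5076. After surgery the Cy5 signal of A_52_P117408 was 287816 and 243982 in TSP 1 and TSP 2 and 9057, 1118, 7109 and 40197 in TSP 3 to TSP 6, against 185488, 351567 and 405979 in TMP. Its Cy3 signal was 3453 and 3377 in TSP 1 and TSP 2 and 577, 355, 619 and 1379 in TSP 3 to TSP 6, against 7606, 3320 and 4444 in TMP. Arrays with a high Cy5 signal of Tgn were those with a high Cy3 signal, and no Tgn spot was saturated.

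**Figure D2:**
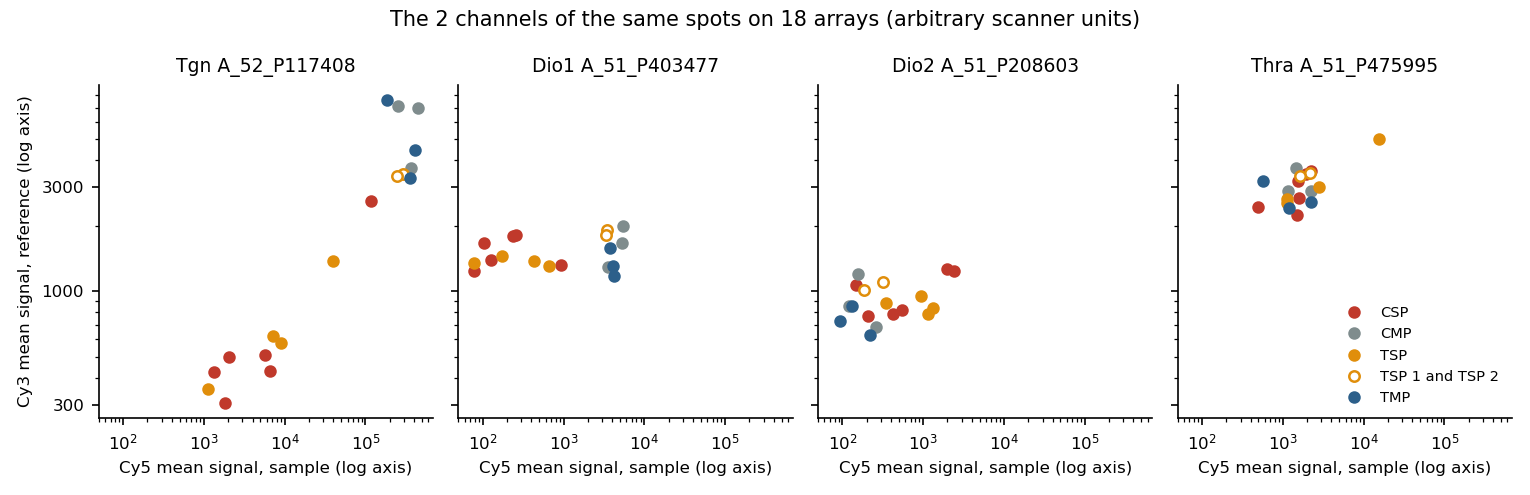
Cy5 signal, the sample channel (horizontal, log axis), against Cy3 signal, the reference channel (vertical, log axis), in scanner units. Shown is 1 probe of each of 4 genes, 1 point per array. For Tgn the Cy3 signal runs from 305 to 7606 and climbs with Cy5, while for Dio1 it stays between 1176 and 1990 over a Cy5 range of 77 to 5397.

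Read from the Cy5 channel alone, as log2 of the processed signal relative to the array's 75th percentile, Tgn fell in the side population. CSP minus CMP was -4.72 ± 1.31 for A_52_P117408, a 26.3-fold lower level (adjusted p = 0.0309), and -4.78 ± 1.33 for A_52_P590168, 27.5-fold lower (adjusted p = 0.0306). On this scale 11.1% of all tested probes were called (5.09% higher and 5.96% lower) and 5 of the 11 member probes. When TSP 1 and TSP 2 were left out of the shared spread, the background was 16.4% (7.73% higher and 8.67% lower) and again 5 member probes were called. Without CSP 6 the Tgn fall was 45.0-fold and 47.4-fold (adjusted p = 0.0124 and 0.0123). TSP minus TMP was -3.33 ± 1.31 (adjusted p = 0.316) and -3.32 ± 1.33 (adjusted p = 0.318) with all arrays. Without TSP 1 and TSP 2 it was -4.80 ± 1.12 and -4.83 ± 1.12 (adjusted p = 0.00923 and 0.00899), 27.9-fold and 28.4-fold lower, against 13.7% of all tested probes called (6.59% higher and 7.06% lower) and 6 of 11 member probes.

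The Cy3 channel alone, tested the same way, differed by -4.10 ± 0.94 and -3.95 ± 0.87 for the 2 Tgn probes in CSP minus CMP (adjusted p = 0.144 and 0.125), and 2 of 29803 probes, neither of them a Tgn probe, were called there (0.00671%). The Tgn differences were the lowest and second lowest of all tested probes in Cy3, where the median was 0.04 and the 1st and 99th percentiles were -0.66 and 0.69. Among the other probes above 100000 in Cy5 on every CMP array the Cy3 difference ran from -0.72 to 1.94, with a median of 0.45. That set was picked for its Cy5 level in CMP, not for a fall in Cy5. Tgn was not alone in a Cy3 fall. Next lowest in Cy3 were AK079190, at -3.60 in Cy3 and -3.50 in Cy5, and Cldn4, at -3.39 and -5.87. Igfbp7, also among the lowest in Cy3 at -2.25, rose by 3.33 in Cy5. For Tshr A_51_P179103, Dio1, Dio2 and both Thra probes the Cy3 difference lay between -0.32 and 0.34. Within a slide the 2 channels kept the same order in part. On slide 4, in CSP 5, CSP 6, TMP 2 and CMP 2, the Cy3 signal of A_52_P117408 was 430, 2597, 3320 and 3671. Its Cy5 signal there was 6571, 117592, 351567 and 363772. At A_52_P590168 on that slide TMP 2 was above CMP 2 in Cy5 (330473 and 297061) but below it in Cy3 (2158 and 2227). At A_52_P117408 the order also broke between TMP 1 and CMP 1 on slide 2 and between TSP 4 and CSP 4 on slide 3. What made Cy3 move with Cy5 at these probes was not tested.

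**Figure D3:**
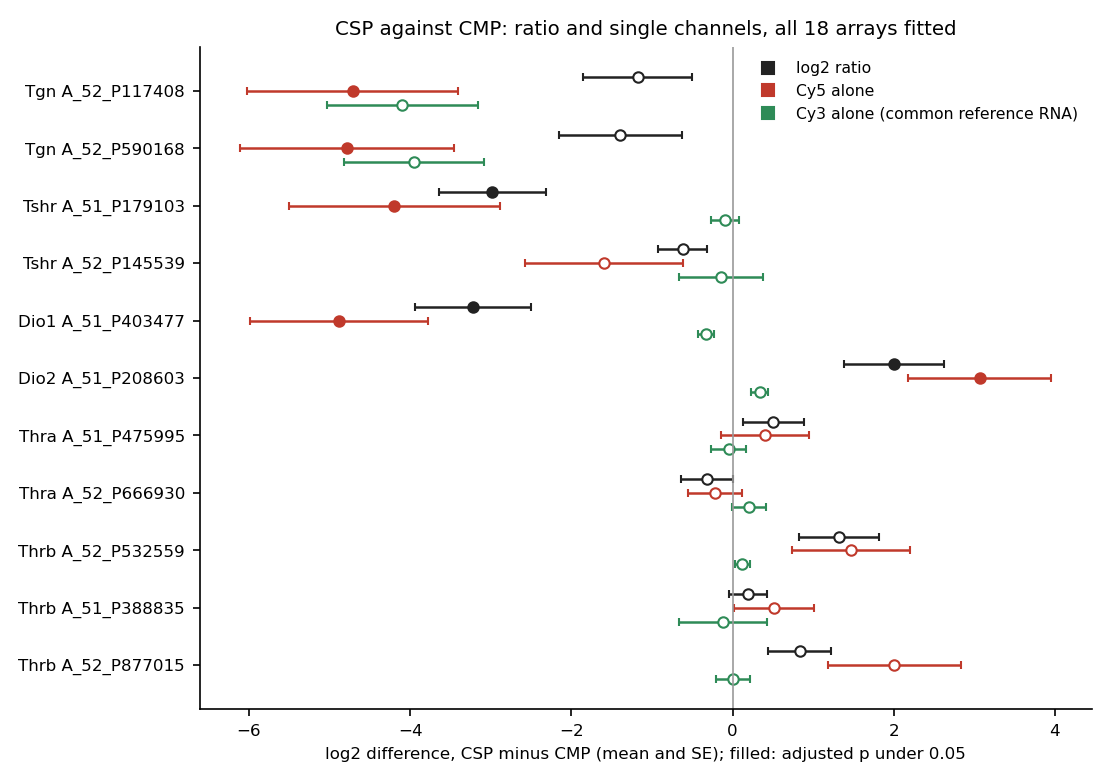
Log2 difference of CSP minus CMP (horizontal, mean and SE) for the 11 tested probes in the ratio, in Cy5 alone and in Cy3 alone, with filled points at an adjusted p under 0.05. The Tgn probes are at -1.18 and -1.39 in the ratio, at -4.72 and -4.78 in Cy5 and at -4.10 and -3.95 in Cy3, whereas Cy3 of Tshr A_51_P179103, Dio1 and Dio2 stays within 0.34 of 0.

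Tshr, the gland's receptor for TSH, fell in the side population. Tshr A_51_P179103 had a lowest, median and highest log2 ratio of -0.35, 0.0005 and 0.96 in CSP, against 3.66, 2.66 and 3.00 in CMP. All CSP arrays were below all CMP arrays, and the highest CSP value was CSP 6. It was well above background on 2 of 6 CSP arrays, against 3 of 3 CMP arrays. The difference was -2.98 ± 0.67 (adjusted p = 0.0107). With most CSP arrays at background its size depends on the processing: the fold was 7.88 in the ratio, 4.95 with each array centred on its median, 14.1 with Agilent's processed signals (adjusted p = 0.0506) and 18.3 in Cy5 alone. In TSP the ratio was 3.21 and 2.63 on TSP 1 and TSP 2 and -0.40, -0.41, -0.30 and 0.005 on TSP 3 to TSP 6, against 3.02, 2.83 and 2.94 in TMP. TSP 3 to TSP 6 lay far below TMP and TSP 1 and TSP 2 lay with it. The difference was -2.14 ± 0.67 with all TSP arrays (adjusted p = 0.278). On TSP 3 to TSP 6 the probe was not well above background, so the fitted difference without TSP 1 and TSP 2 (-3.21 ± 0.31, adjusted p = 2.67e-06) is no exact size, and the Cy5 level there is a bound, set against the lowest signal well above background on each array: at least 5.50-fold lower than in TMP. Group means were 0.13 ± 0.50 in CSP (SD, n = 6) and 3.11 ± 0.50 in CMP (n = 3), and 0.79 ± 1.67 in TSP (n = 6) and 2.93 ± 0.10 in TMP (n = 3). The order from low to high was CSP, TSP, TMP and CMP, where CSP and TSP, and TMP and CMP, differed by less than their spread. Tshr A_52_P145539, the probe that crosses an intron, was well above background on 4 of 18 arrays and gave -0.62 ± 0.30 in CSP minus CMP (adjusted p = 0.188).

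Dio1, the type 1 deiodinase, fell as far as Tshr. Its ratio had a lowest, median and highest value of -2.08, -1.72 and 0.47 in CSP, against 2.14, 2.02 and 1.46 in CMP. CSP 6 again held the highest CSP value, 0.47, next to -1.13 in CSP 1, and still lay below CMP. The difference was -3.23 ± 0.72, 9.35-fold (adjusted p = 0.0105). The fold was 16.6 with each array centred on its median, 18.9 with Agilent's processed signals and 29.6 in Cy5 alone (adjusted p = 0.0134, 0.0194 and 0.0177), and the probe was well above background on 4 of 6 CSP arrays and 3 of 3 CMP arrays. In TSP the ratio was 1.35 and 1.41 on TSP 1 and TSP 2 and -1.62, -2.67, -1.02 and -0.42 on TSP 3 to TSP 6, against 2.18, 1.90 and 1.64 in TMP. TSP minus TMP was -2.40 ± 0.72 (adjusted p = 0.278) and, without TSP 1 and TSP 2, -3.34 ± 0.54 (10.1-fold, adjusted p = 0.000416). The means were -1.35 ± 0.95 in CSP (SD, n = 6) and 1.87 ± 0.36 in CMP (n = 3), and -0.50 ± 1.63 in TSP (n = 6) and 1.91 ± 0.27 in TMP (n = 3). From low to high the order was CSP, TSP, CMP and TMP, and of its steps only that between TSP and CMP exceeded the spread.

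Dio2, the type 2 deiodinase, which makes triiodothyronine inside the cell that uses it, ran the other way. Its ratio had a lowest, median and highest value of -0.93, 0.53 and 2.00 in CSP, against -1.65, -1.61 and -0.74 in CMP. CSP 3, at -0.93, lay inside the range of CMP and the other CSP arrays lay above it. The difference was 2.00 ± 0.62, 4.01-fold higher (adjusted p = 0.0399), with 6 of 6 CSP arrays and 2 of 3 CMP arrays well above background. The call depends on the arrays and the scaling. It was lost on leaving out CSP 1, CSP 2, CSP 5 or any one CMP array (adjusted p between 0.0557 and 0.151). With the ratios scaled between arrays the difference was 1.84 (adjusted p = 0.112), and with each array centred on its median 1.78 (adjusted p = 0.103). In TSP the ratio was -0.92 and -1.56 on TSP 1 and TSP 2 and 0.04, 0.94, 1.16 and 0.44 on TSP 3 to TSP 6, against -1.36, -1.95 and -0.94 in TMP. TSP minus TMP was 1.43 ± 0.62 (adjusted p = 0.355) and, without TSP 1 and TSP 2, 2.06 ± 0.57 (4.16-fold, adjusted p = 0.0213), where TSP 3 to TSP 6 all lay above TMP. The means were 0.67 ± 1.16 in CSP (SD, n = 6) and -1.34 ± 0.52 in CMP (n = 3), and 0.01 ± 1.07 in TSP (n = 6) and -1.42 ± 0.50 in TMP (n = 3).

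The promoter of Dio2 in the RefSeq table (GRCm38.p6) holds the palindromic cyclic AMP response element TGACGTCA, in capitals below, once in the 250 bases before the start of the gene, and it is printed because TSH acts through cyclic AMP. The window is chr12:90739039-90739288, on the minus strand.
Dio2 promoter: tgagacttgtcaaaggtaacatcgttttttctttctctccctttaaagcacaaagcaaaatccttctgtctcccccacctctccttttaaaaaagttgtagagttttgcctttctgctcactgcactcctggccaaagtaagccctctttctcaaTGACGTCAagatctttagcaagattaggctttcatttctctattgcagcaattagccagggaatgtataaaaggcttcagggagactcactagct
The same 8 letters occur in 508 of 32851 such windows of the table, 1.55%, and in none of the windows of Dio1 (1 window) and Thrb (2 windows). The table has no window for Tg, Tshr or Thra, so these members were not searched. The hormone receptor half-site AGGTCA, searched on both strands, occurs in 14% of all windows, in 1 of the 2 Thrb windows and in neither Dio1 nor Dio2. A match is a run of letters and says nothing of use in these cells.

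The receptors of the hormone split by probe. Thra A_51_P475995 had a lowest, median and highest ratio of -1.13, 0.09 and 0.30 in CSP, against -0.54, -0.81 and -0.43 in CMP, and -0.55, -0.27 and 1.35 in TSP, against -1.41, -0.69 and -0.44 in TMP. The groups overlap, and neither comparison passed the test (CSP minus CMP 0.51 ± 0.38, adjusted p = 0.42, and TSP minus TMP 0.79 ± 0.38, adjusted p = 0.402). Without TSP 1 and TSP 2 the TSP minus TMP difference was 0.96 ± 0.41 (adjusted p = 0.151). Thra A_52_P666930, the probe shown above, gave -0.32 ± 0.33 (adjusted p = 0.58) and 0.30 ± 0.33 (adjusted p = 0.793), the second of these 0.20 ± 0.36 without TSP 1 and TSP 2 (adjusted p = 0.801). TSP 5 stood far above the other TSP arrays at A_51_P475995, with 15406 in Cy5 and 5011 in Cy3, while the other TSP arrays read 1111 to 2809 in Cy5. The local Cy5 background of that spot was 912, against 39 to 134 on the other TSP arrays, and its part in the value was not tested. At A_52_P666930 TSP 5 read 457 in Cy5, within the 399 to 974 of the other TSP arrays, so the 2 Thra probes disagree on that array.

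Thrb A_52_P532559, the brightest probe named for receptor beta but one without a RefSeq match, had a lowest, median and highest ratio of -2.05, -1.07 and -0.46 in CSP, against -2.73, -2.92 and -1.94 in CMP. CSP 1 lay inside the range of CMP. The probe was well above background on 5 of 6 CSP and 2 of 3 CMP arrays, and on 5 of 6 TSP and 1 of 3 TMP arrays, so its folds are taken against groups partly at background. The difference was 1.33 ± 0.50 (adjusted p = 0.0845). It passed the test when TSP 1 and TSP 2 were left out of the shared estimate of the spread (adjusted p = 0.0114, against 17.3% of all probes called, 8.91% higher and 8.39% lower) and with the slide as a block (2.03 ± 0.39, adjusted p = 0.0037, 24.9% called), but not in Cy5 alone (1.47 ± 0.73, adjusted p = 0.209). In TSP it was -2.72 and -2.61 on TSP 1 and TSP 2 and -0.81, -1.10, -0.18 and -0.71 on TSP 3 to TSP 6, against -2.74, -2.72 and -2.44 in TMP. The difference was 1.28 ± 0.50 with all TSP arrays (adjusted p = 0.308) and 1.93 ± 0.37 without TSP 1 and TSP 2 (adjusted p = 0.00167). The other tested Thrb probes were dimmer: A_51_P388835, the one tested Thrb probe with a RefSeq match, was well above background on 7 of 18 arrays (CSP minus CMP 0.19 ± 0.23, adjusted p = 0.646, and TSP minus TMP -0.17 ± 0.23, adjusted p = 0.846) and A_52_P877015 on 3 of 18 (0.84 ± 0.39, adjusted p = 0.171). Group means of A_52_P532559 were -1.21 ± 0.64 in CSP (SD, n = 6) and -2.53 ± 0.52 in CMP (n = 3), and -1.36 ± 1.06 in TSP (n = 6) and -2.64 ± 0.17 in TMP (n = 3).

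**Figure D4:**
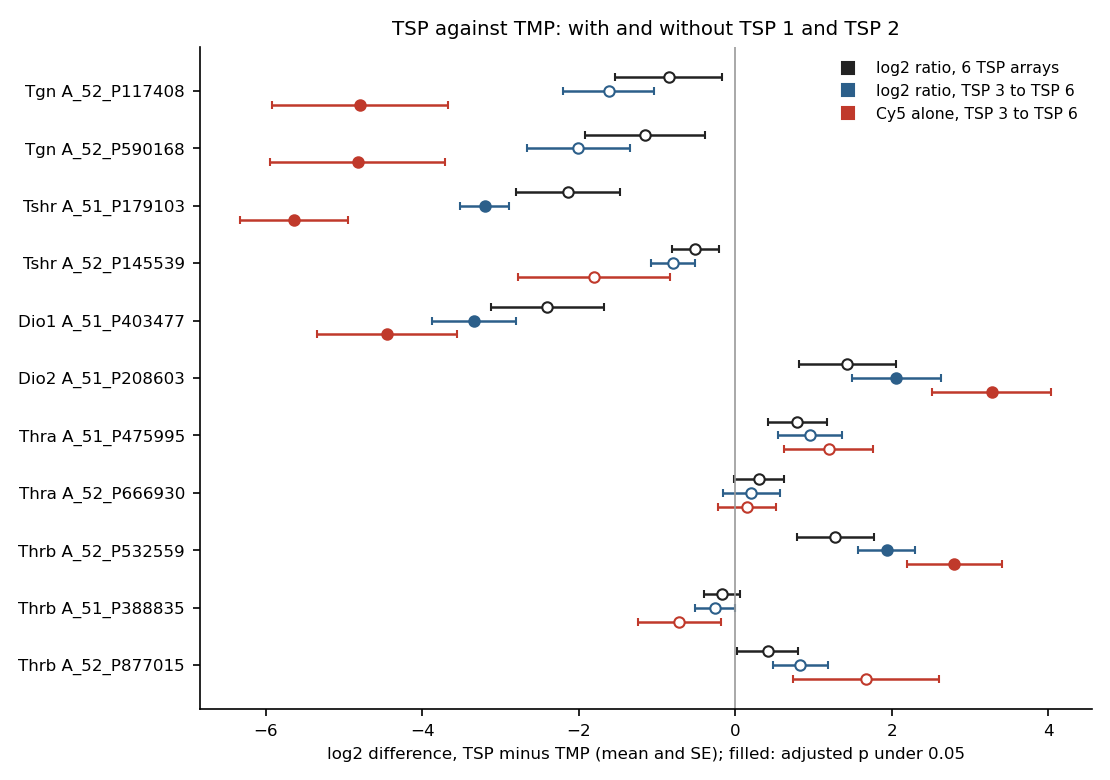
Log2 difference of TSP minus TMP (horizontal, mean and SE) for the 11 tested probes, in the ratio with all 6 TSP arrays, in the ratio with TSP 3 to TSP 6, and in Cy5 alone with TSP 3 to TSP 6, filled at an adjusted p under 0.05. Without TSP 1 and TSP 2 the ratio gives -3.21 for Tshr A_51_P179103, -3.34 for Dio1, 2.06 for Dio2 and 1.93 for Thrb A_52_P532559, and in Cy5 the Tgn probes are at -4.80 and -4.83.

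Whether Tgn changed unlike the other members was tested within arrays, on the ratio of the brightest probe of Tgn minus that of each of the 5 other genes, with an exact two-sided permutation over arrays whose smallest possible p is 0.0238. In the ratio, the change of Tgn in CSP minus CMP exceeded that of Tshr by 1.80 (p = 0.0476 by the exact permutation test) and that of Dio1 by 2.05 (p = 0.0238 by the exact permutation test). After Benjamini-Hochberg adjustment over the 5 comparisons both stood at 0.0595 in the exact test, and 0 of 5 passed. In Cy5 alone the difference was -0.52 for Tshr and 0.17 for Dio1 (p = 0.738 by the exact permutation test for each). In the ratio the fall of Tgn was thus the smallest of the 3 by a margin that missed the threshold, and in Cy5 the fall of Tgn lay between those of Tshr and Dio1. With each array centred on its median the difference from Tshr was -0.22 (exact p = 0.833) and that from Dio1 1.52 (exact p = 0.119). With the ratios scaled between arrays they were 1.62 and 1.84, and both passed (adjusted p = 0.0476 and 0.0397 by the exact test). Tshr A_51_P179103 was well above background on 2 of 6 CSP arrays and Dio1 on 4 of 6, against 6 of 6 for Tgn. Their falls are set partly by the background, so the order of the 3 falls is no ranking of sizes. Against Dio2, Thra and Thrb the Cy5 change of Tgn differed by -7.78, -5.12 and -6.18 (adjusted p = 0.0397 by the exact test for each). In TSP against TMP 0 of 5 passed in the ratio, with exact p between 0.0476 and 0.214. Without TSP 1 and TSP 2, 4 arrays against 3 cannot give an exact p under 0.0571.

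No member passed the test for an effect of surgery. In TSP against CSP, in TMP against CMP and in the difference between the 2 population contrasts, limma called 0 of 29803 probes. At an unadjusted p under 0.05 it counted 2757 (9.25%), 35 (0.117%) and 298 (1%), of which 0 were member probes in all 3. The last 2 shares lie below the limit of 0.05 itself. The fit shares one spread over the 4 groups, while the SD of Tshr A_51_P179103 was 1.67 in TSP and 0.10 in TMP. A missing call in these comparisons therefore does not show that surgery had no effect. TSP and CSP share slides 1 and 3, and with the slide as a block 3.64% of probes were called in TSP minus CSP and 0.00336% in the difference of contrasts, with 0 member probes in either (lowest adjusted p 0.175 and 0.7). In TMP minus CMP the member differences ran from -0.25 for Thra A_51_P475995 to 0.26 for Thrb A_52_P877015. TSP minus CSP was 0.66 for Tshr A_51_P179103 and 0.86 for Dio1, and without TSP 1 and TSP 2 it was -0.40 and -0.08. In TSP minus TMP limma also called 0 of 29803 probes with all arrays, and 3711 (12.5%) at an unadjusted p under 0.05, with 4 of the 11 member probes among them.

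The other genes of hormone synthesis were read on their brightest tested probe, from lists drawn up for this pathway with earlier results of these data known. Of the 9 genes that trap, oxidise, couple or recycle iodide, 5 fell and 0 rose in CSP against CMP, with a median difference of -1.49, against 0.04 over all tested probes, of which 6.54% were called higher and 6.63% lower. Iyd, which recovers iodide from used tyrosines, fell by 3.14 ± 0.78 on the log2 scale (adjusted p = 0.0151), with 2 of 6 CSP and 3 of 3 CMP arrays well above background, and Duoxa1, a maturation factor of the hydrogen peroxide source, by 2.92 ± 0.78 (adjusted p = 0.0201), with 3 of 6 and 3 of 3. Of the 4 transcription factors that define the thyroid lineage, Pax8 fell by 2.95 (adjusted p = 0.0156), Nkx2-1 fell by 2.80 (adjusted p = 0.0233) and Foxe1 fell by 2.79 (adjusted p = 0.00964), while Hhex gave -0.36 (adjusted p = 0.422). Pax8 and Nkx2-1 were well above background on 4 of 6 CSP arrays and Foxe1 on 1 of 6, so the sizes of these falls are set partly by the background. In TSP against TMP 0 genes of either list were called with all arrays (medians -1.34 and -2.08), and without TSP 1 and TSP 2 the counts were 5 of 9 and 3 of 4 lower.

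Genes that fold, take up or digest thyroglobulin split. Of 14, 3 rose and 3 fell, with a median of -0.04. Ctsk, a cathepsin able to release hormone from thyroglobulin, rose 10.3-fold (3.36 ± 0.79, adjusted p = 0.0126), and the endoplasmic reticulum chaperones Calr and Hsp90b1 rose 2.78-fold and 2.26-fold (adjusted p = 0.0123 and 0.0378). Lrp2, the megalin receptor, fell 5.77-fold (-2.53 ± 0.59, adjusted p = 0.0124), Asgr1, which binds undersialylated glycoproteins, fell 5.23-fold (-2.39 ± 0.57, adjusted p = 0.0133) and the oxidase Ero1lb 2.53-fold (-1.34 ± 0.40, adjusted p = 0.0324).

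Genes downstream of the receptor of TSH were called at about the overall rate. Of 16 tested genes of TSH and its signalling, 2 rose, Arrb1 (beta-arrestin, 2.35-fold, adjusted p = 0.0233) and Gna11 (a G protein of the phospholipase C arm, 1.92-fold, adjusted p = 0.0177), and 0 fell, with a median of 0.17, a share near the 13.2% called over all probes. Gnas, the stimulatory G protein that couples the receptor to cyclic AMP, gave 0.02 ± 0.25 (adjusted p = 0.971; it is named here after its value was seen). Of 10 genes of hormone transport and binding, 0 rose and 1 fell, with a median of 0.36. Of 13 partners of the nuclear receptors 0 passed (median -0.14), and of 7 known target genes 1, Me1, fell (3.54-fold, adjusted p = 0.0336), again near the overall share.

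Dio3, the deiodinase that inactivates the hormone, was well above background on 6 of 6 CSP arrays and 0 of 3 CMP arrays. The mean Cy5 level of CSP was at least 5.19-fold higher, a bound on the group means and not on each array. The Cy5 mean signal was 2311, 1703 and 1221 in CSP 1, CSP 2 and CSP 6. In CSP 3, CSP 4 and CSP 5 it was 68, 71 and 150, against 89, 59 and 114 in CMP. The log2 ratio of Dio3 ranged widely, with 3.52, 2.89 and 3.19 in CSP 1, CSP 2 and CSP 6 and -0.30, 0.02 and 0.49 in CSP 3, CSP 4 and CSP 5, against -0.88, -1.10 and -1.09 in CMP. The difference of 2.66 ± 0.90 missed the threshold (adjusted p = 0.0588), and passed without TSP 1 and TSP 2 (adjusted p = 0.0378). The sulfotransferase Sult1a1 gave 0.25 (adjusted p = 0.769), and the list's remaining 2 genes were below the detection limit set for testing. Of the 2 genes that overlap or adjoin members, Nr1d1 at Thra gave -0.14 (adjusted p = 0.813) and Sla at Tgn -0.62 (adjusted p = 0.363).

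**Figure D5:**
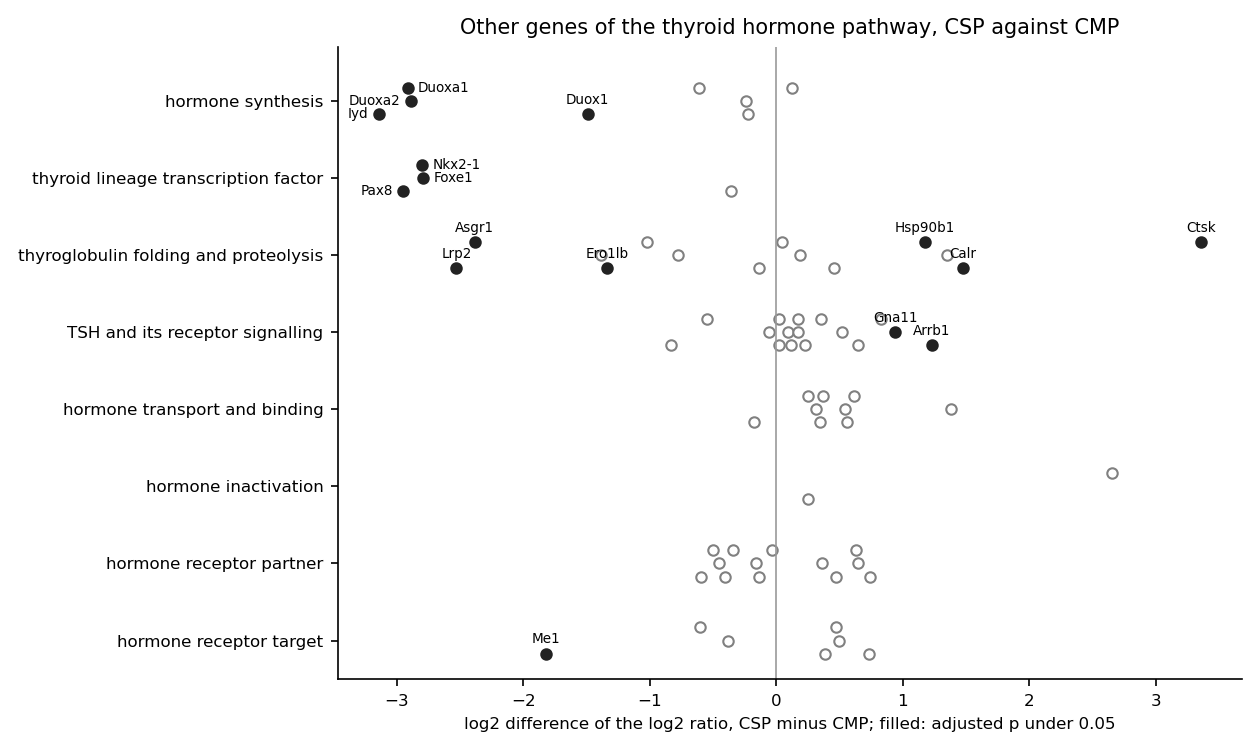
Log2 difference of CSP minus CMP (horizontal) of the genes of 8 pathway lists, 1 point a gene and 2 genes left out, filled and named at an adjusted p under 0.05. The called synthesis genes and lineage factors lie to the left (Iyd at -3.14, Pax8 at -2.95), and the uncalled genes of these 2 lists lie nearer to 0. Ctsk at 3.36 lies to the right, and signalling genes and receptor partners gather near 0.

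Markers of other cells moved with these results. All 11 epithelial markers fell (median -3.23) and all 11 endothelial markers rose (median 3.26) in CSP against CMP, and 8 of 10 fibroblast markers rose (median 3.34). Their mean log2 ratio per array ran from -1.52 to 1.95 in CSP, against 3.10 to 3.42 in CMP, for epithelial markers, with 1.95 in CSP 6. It ran from 0.95 to 3.11 in CSP, against -1.84 to -1.19 in CMP, for endothelial markers, and from -1.65 to 0.71, against -4.08 to -3.33, for fibroblast markers. None of these lists was at 0: at least 9 of 11 epithelial, 11 of 11 endothelial and 10 of 10 fibroblast genes were well above background on every CSP array. On TSP 1 and TSP 2 the 3 lists read 3.66 to 3.72, -1.60 to -1.49 and -3.46 to -3.35, close to TMP, at 3.06 to 3.63, -1.72 to -1.18 and -3.89 to -3.06. Of 10 macrophage and pan-leukocyte markers 1 rose and 3 fell, and of 7 C cell and parathyroid, 6 adipocyte, 8 skeletal muscle and 3 erythroid markers tested 0 were called. In sorted pools, fewer follicular cells and less RNA per cell cannot be told apart, and the part of the marker shifts in the member results was not tested.

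The genes nearest to a member in their course over the 18 arrays depended on the channel, with none of the 3 nearest shared between ratio and Cy5 for Tgn, Dio1 and Thra. By the mean absolute difference of centred log2 ratios, over 19981 genes, the nearest to Tgn were Lrrfip1 (0.40), Moxd1 (0.44) and AI838057 (0.44). In Cy5 alone they were Slc5a8 (0.43), Eva1 (the files' name of Mpzl2, 0.44) and Mal2 (0.44). Of these, Eva1 and Slc5a8 were also the nearest to Dio1 in Cy5 (0.34 and 0.39). In the ratio the nearest to Tshr were AK015205 (0.26), 9030409G11Rik (0.26) and Plekhb1 (0.30), and in Cy5 its second nearest was 9030623N16Rik (Duoxa2, 0.57). The nearest to Dio1 were Tmprss2 (0.28), Plekhb1 (0.28) and Cited4 (0.30), to Dio2 Spon2 (0.20), Apod (0.28) and Cpxm1 (0.28), to Thra Yeats2 (0.21), Psmc4 (0.22) and Ubtf (0.23), and to Thrb Cdyl2 (0.22), Pcdh19 (0.24) and Notch3 (0.25). These are descriptions over arrays that share slides and a reference.

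The slides held both populations in 2 cases. On slide 4 (CSP 5, CSP 6, CMP 2 and TMP 2) CSP minus CMP was -2.30 for Tshr A_51_P179103, -2.68 for Dio1, 2.14 for Dio2, 2.14 for Thrb A_52_P532559 and -1.11 for Tgn A_52_P117408. On slide 5 (TSP 5, TSP 6, TMP 3 and CMP 3) TSP minus TMP was -3.09 for Tshr A_51_P179103, -2.36 for Dio1, 1.74 for Dio2, 2.00 for Thrb A_52_P532559 and -1.18 for Tgn A_52_P117408. For these probes the directions were the same as over all arrays. Thra A_52_P666930 went the other way on both slides (0.21 on slide 4 and -0.15 on slide 5), and Thrb A_51_P388835 did on slide 4 (-0.02). With 2 arrays against 1, a test within a slide has too few arrays to inform, and none is read here.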

How the data were processed

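Sorted thyroid cells were measured on 18 two-colour arrays. The deposited scanner files hold intensity per spot and channel, with flags, made with Agilent Feature Extraction (8.5.1.1 per the submitters' processing notes, 9.5.1.1 per the file headers). The authors also deposited log2 ratios for 33040 probes, whose normalization is not given in the sources used here. Only 9 of those 18 columns matched the scanner file of the same sample best, and the other 9, all of side population samples, matched another file of their group. Replicate numbers of side population arrays therefore follow the scanner files and are uncertain, while the groups are not affected, and the deposited log2 ratios served only as an alternative. Slides are numbered in the order of scanning.

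Of 45018 spots, 43379 are not controls. Mean signals were corrected with normexp (offset 50) and normalized by loess in limma 3.58.1 (R 4.3.3, data.table version 1.17.8), marked spots left out and spots of a probe averaged. Probes detected above background in Cy5 (3 or more arrays) were fitted with 4 group means and empirical Bayes. The fit was tested on simulated data. Figures were drawn with Python 3.11.15 and matplotlib 3.10.9. The number of arrays limits the precision. Same-numbered TMP and CMP samples shared a slide and deviated together (r of 0.66, 0.72 and 0.798), so they were also fitted as pairs. Genes named were the members, up to 3 called increases and 3 called decreases of each pathway list in CSP minus CMP, and the 3 genes nearest to each member. Members and lists (154 list genes with a probe) were chosen with earlier results of these data known. The values of 2 list genes are not reported here, although the counts and medians of their lists include them. Alternatives covered background correction, normalization, single channels, dim-probe filters, slide and replicate blocks and left-out arrays. The Cy3 channel and Cy5 without single arrays were added after seeing the data.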

Additional observations from a re-analysis of the deposited data

Results flagged for a closer look

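Among 44 sets of side population values examined, 7 held an array far from the rest of its group. For a single set chance gives about 1 in 20. The ratio and Cy5 of one spot, and the probes of one gene, counted as separate sets. The sets are thus not independent, and 7 of 44 cannot be read against that rate. Dio1 in CSP 6 stood above the other CSP arrays in the log2 ratio, at 0.475 with the next at -1.13, and in Cy5 over the array's 75th percentile, at 0.137 with the next at -2.97. Thra A_51_P475995 in CSP 4 stood below them, at -1.13 in the ratio with the next at -0.0986 and at -0.316 in Cy5 with the next at 0.834. The other Thra probe, A_52_P666930, was also low on CSP 4 in Cy5, at -2.32 with the next at -0.982. Thra A_51_P475995 in TSP 5 stood above the other TSP arrays, at 1.35 in the ratio with the next at -0.17 and at 3.36 in Cy5 with the next at 0.85. What set these arrays apart was not tested.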

How the results depend on the processing

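In CSP against CMP, 3 member probes were called. The count was 1 with Agilent's processed signals and loess, 1 with the authors' deposited values, 5 in Cy5 alone, 5 in Cy5 alone without TSP 1 and TSP 2, 6 in Cy5 alone without CSP 6, 0 in Cy3 alone, 0 among probes above background on all arrays (a filter that keeps only the Tgn and Thra probes and removes all 3 called ones), 0 within slide 4 (2 arrays against 1, too few to inform), and between 0 and 3 on leaving out one array. Of all tested probes, 13.2% were called in the main fit of CSP against CMP, 11.1% in Cy5 alone, 16.4% in Cy5 alone without TSP 1 and TSP 2, and 0.00671% in Cy3 alone. In TSP against TMP, with 0 called, the member count was 4 without TSP 1 and TSP 2 and 5 without slide 1. It was 6 in Cy5 alone without TSP 1 and TSP 2, and between 0 and 2 on leaving out one array (2 without TSP 1 or without TSP 2). The share of all probes was 12.7% without TSP 1 and TSP 2, and 13.7% in Cy5 alone without them. For the other settings no share is given, so their member counts cannot be set against it. In TSP against CSP, with 0 called, the member count was 8 within slide 1, where Thra A_51_P475995 turned to -0.61 from 0.04. That setting sets only TSP 1 and TSP 2, the arrays closest to the main population, against CSP 1 and CSP 2. No share of all probes is given for it, and its count is not read as an effect of surgery. The genes whose change differed from that of Tgn in CSP against CMP, 0 in the ratio, were 3 with each array centred on its median, 5 with scaling between arrays, 3 in Cy5 alone and 3 in Cy5 alone without TSP 1 and TSP 2. The cause was not tested.

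With the replicate number as a block over all arrays, Dio2 in CSP minus CMP was 1.76 (adjusted p = 0.159), 2 member probes were called there and 0 in the other comparisons. In the paired fit of TMP and CMP, 4 of 29803 probes were called and 0 member probes. Values of dim probes, such as Tshr A_52_P145539, are limited by background.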
